A study of Homo sapiens with 18 samples.

Results

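A set of genes was chosen by name because their proteins bind AU-rich elements or take part in deadenylation. They are ZFP36, ZFP36L1, ZFP36L2, BTG1, TOB1, TOB2, ELAVL1, KHSRP, CNOT1 and CNOT7, which makes 10 of the 23604 genes listed in the RNA-Seq libraries and 10 of the 16948 that had enough counts to be tested. Their mRNA levels and the RNAPII peaks over their transcription start sites (TSSs) were followed in MCF10A-ErSrc, a human breast epithelial line that carries a v-Src kinase fused to an estrogen receptor domain, so that tamoxifen switches it on. NT cells received no tamoxifen and are the progenitors, and TAM cells were transformed with tamoxifen. Both kinds were incubated for 4 h with DMSO, the solvent control, or with triptolide (TPL), which binds XPB, the ATPase of TFIIH that opens promoter DNA. The labels give the dose as TPL-125nM. The v-Src line is thus a single engineered line, and every group carries the same fusion. Each of the 4 groups (NT, NT + TPL, TAM and TAM + TPL) has 2 RNA-Seq libraries from independent biological replicates, and 1 RNAPII peak list per condition was used.

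AU-rich elements (AREs) are A- and U-rich stretches in the 3′ untranslated region (3′UTR) of many short-lived mRNAs, among them those of cytokines, chemokines and immediate early transcription factors. ZFP36 (tristetraprolin) and its relatives ZFP36L1 and ZFP36L2 bind AREs through paired zinc fingers and recruit the CCR4-NOT complex, which removes the poly(A) tail and so starts decay of the mRNA. CNOT1 is the scaffold of that complex and CNOT7 one of its deadenylases. BTG1, TOB1 and TOB2 belong to the BTG/TOB family of antiproliferative proteins, which bind CNOT7 and bring it to mRNAs, and KHSRP is another ARE-binding protein that promotes decay. ELAVL1 (HuR) binds AREs too but mostly protects the mRNA. The mRNAs of the ZFP36 genes are themselves immediate early and short-lived. Whether these proteins control the inflammatory mRNAs of the NF-kB and STAT3 pathways in the cells used here was not tested.

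The libraries held between 7461309 and 8349448 expected counts, which are the reads per gene as RSEM estimates them. Levels are given as FPKM, which divide these by transcript length and library total, so that levels of different genes can be compared. All 8 epithelial marker genes were detected, with a summed level of 13640 to 15320 FPKM in NT cells and 3984 to 4321 FPKM in TAM cells. With TPL the sum was 9642 to 11860 FPKM in NT and 2291 to 2484 FPKM in TAM cells. At an adjusted p of 0.05 TPL lowered 4 and 3 of the 8 markers and raised 1 (ITGB4) and 0. Most of the sum in NT cells came from KRT5 (6249.55 and 5776.13 FPKM) and KRT17 (7283.68 and 6144.11 FPKM). Between TAM and NT cells without TPL, KRT5, KRT14 and KRT17 were lower and 0 of the 8 were higher. With TPL, LAMB3 was higher in TAM cells and 3 of the 8 were lower. Of 6 markers of leukocytes, endothelium and fibroblasts, 5 were listed and their summed level did not pass 9.25 FPKM in any library, with CD3E at 0 in 5 of them. Whether the changes in epithelial markers bear on the members was not tested. An mRNA is measured here relative to the others in its library, so that losses shared by every mRNA stay hidden. A lower level per cell cannot be told apart from fewer cells with the mRNA. Where an mRNA is said to rise, its share of the library rose, which need not be an increase per cell.

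With TPL, the 3 ZFP36 mRNAs fell more than 7-fold in both cell states, while TOB1 and TOB2 rose. In NT cells 6 of the 10 genes were lowered and 2 were raised at an adjusted p of at most 0.05 (edgeR's quasi-likelihood F test, Benjamini-Hochberg adjusted over all genes tested). Among all genes tested 19.8% were lowered and 17.2% raised by the same rule. Every adjusted p given here comes from this test unless DESeq2 is named, and values over the alternatives also draw on DESeq2 and limma. In TAM cells 7 of the 10 were lowered and 2 were raised, against 18.6% and 14.3% of all genes. At the stricter thresholds of the study, adjusted p no higher than 0.001 with a log2 ratio of 1.2 or more in size, ZFP36, ZFP36L1 and ZFP36L2 were called in NT cells and ZFP36 and ZFP36L1 in TAM cells, with 2.71% and 2.04% of all genes called lower by this rule. The median log2 ratio of TPL to DMSO over the 10 was -0.90 for NT and -0.81 for TAM cells, where all genes had medians of 0.09 and 0.05. The strict calls rest on a small number of libraries: in NT cells 0 of the 10 genes were called without NT replicate 1 or 2, TAM replicate 1 or 2 or TAM + TPL replicate 1 or 2, and 1 without NT + TPL replicate 2. In TAM cells 0 were called without any 1 of the NT, TAM and TAM + TPL libraries, and 4 without either NT + TPL library. At an adjusted p of 0.05 the falls of the 3 ZFP36 mRNAs held with any 1 library left out.

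**Figure D1:**
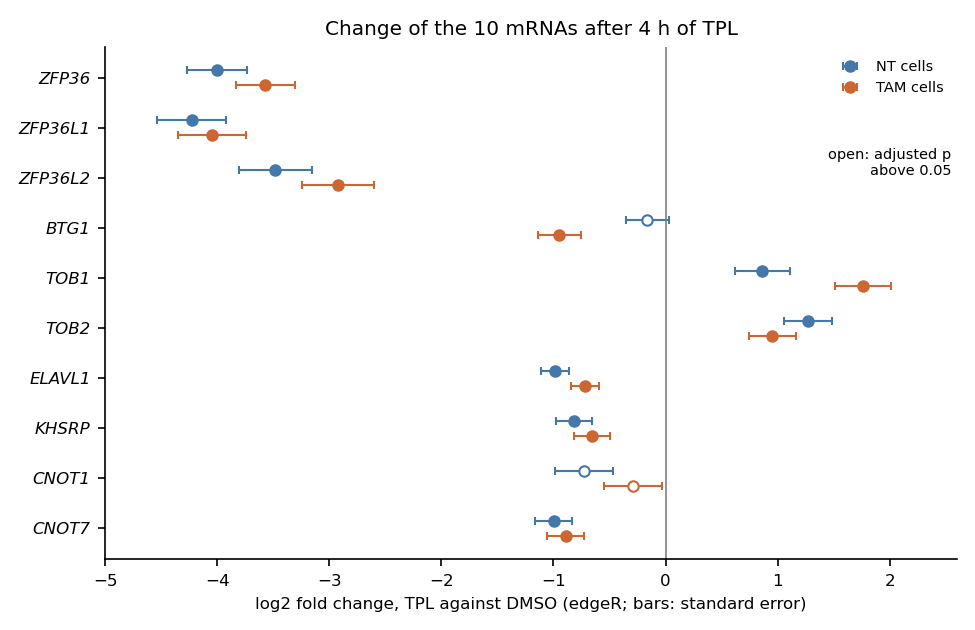
Log2 fold change (the log2 ratio of TPL to DMSO) of each of the 10 mRNAs after TPL (horizontal axis, edgeR, bars are standard errors) in NT cells (blue) and TAM cells (orange), with open points where the adjusted p was above 0.05. The 3 ZFP36 genes lie between -4.23 and -2.92, TOB1 and TOB2 lie above 0, and the others lie between -0.999 and -0.16.

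**Figure D2:**
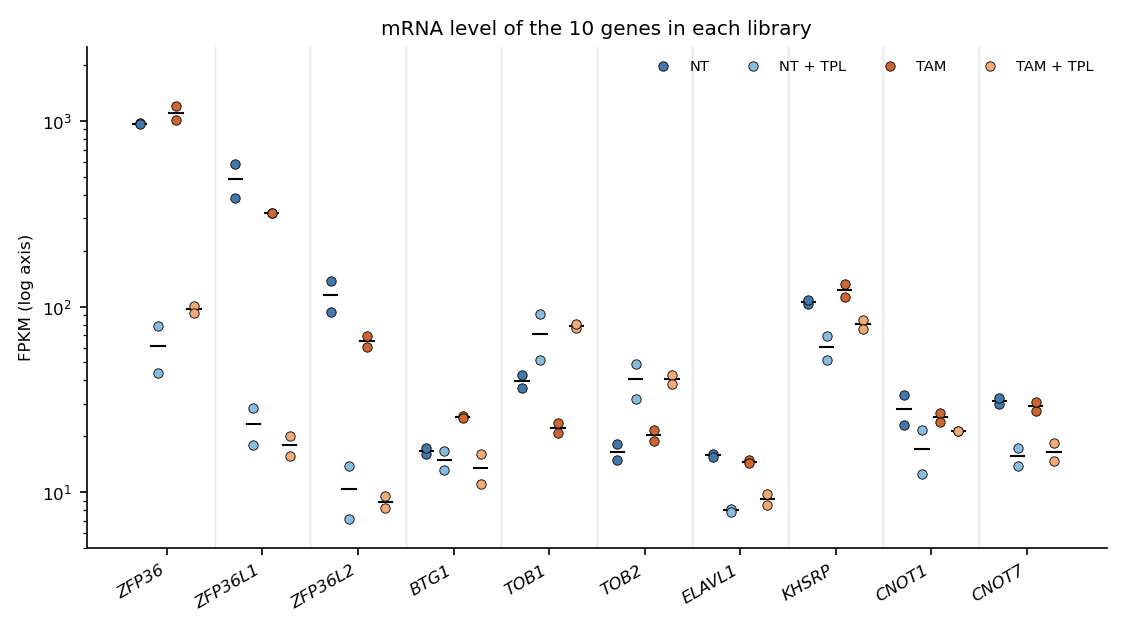
Level of each of the 10 mRNAs (vertical axis, FPKM on a log axis) in the 8 libraries, with a point per library and a bar at the mean of the 2 replicates of a group. ZFP36 and ZFP36L1 have the highest levels of the set without TPL and the 3 ZFP36 genes lie far lower with it, and both TOB genes lie higher with TPL than without it in both cell states.

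ZFP36 (gene ID 7538, chr19:39897487-39900047 on hg19, plus strand) was the most abundant of the 10 mRNAs without TPL. It had 975.48 and 959.02 FPKM in the NT libraries and 78.39 and 43.78 with TPL. The TAM libraries had 1205.10 and 1011.36 FPKM, and 100.83 and 92.08 with TPL. The levels with and without TPL did not overlap in either cell state, and by its mean level ZFP36 dropped from rank 77 of 16948 genes to rank 1082 in NT cells and to 616 from 75 in TAM cells. In NT cells the log2 ratio of TPL to DMSO was -4.002 with an SE of 0.269 (adjusted p = 0.000259), a 16-fold fall. In TAM cells it was -3.57 with an SE of 0.263 (adjusted p = 0.000385), an 11.9-fold fall. Of all genes tested, 1.80% had a log2 ratio as low in NT and 1.65% in TAM cells.

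ZFP36L1 (gene ID 677, chr14:69254379-69259784, minus strand) had 383.72 and 584.72 FPKM in NT cells and 28.60 and 17.96 with TPL. In TAM cells the values were 317.71 and 320.50 FPKM, and 20.21 and 15.71 with TPL. It showed the largest fall of the 10. The log2 ratio was -4.23 for NT cells (SE 0.306, adjusted p = 0.000304), while TAM cells had -4.05 (SE 0.305, adjusted p = 0.000392). The mean transcript length that RSEM gives for a gene moves when the mix of its transcripts does. For ZFP36L1 it lay between 3213.58 and 3216.20 bases in the 4 DMSO libraries and between 3536.61 and 3622.44 bases in the 4 TPL libraries, a gap of at least 9.96%. Among 14906 tested genes with a length in every library, 0.168% were longer and 0.181% shorter by at least as much in all TPL libraries.

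ZFP36L2 (gene ID 678, chr2:43449541-43453745, minus strand) was the least abundant of the 3, with 93.49 and 137.69 FPKM in NT cells and 13.80 and 7.14 with TPL. The TAM libraries had 69.19 and 60.79 FPKM, and 8.18 and 9.50 with TPL. Its log2 ratio came to -3.48 (SE 0.328, adjusted p = 0.000623) with NT and to -2.92 (SE 0.322, adjusted p = 0.00117) with TAM cells, and the latter missed the strict threshold. An annotated antisense gene covers 22.4% of its exonic bases, and whether reads were counted by strand is not given in the sources used here. Added up, the 3 ZFP36 mRNAs held 0.330 and 0.409% of all counts in the NT libraries and 0.0294 and 0.0169% with TPL. In TAM cells they held 0.340 and 0.304%, and 0.0280 and 0.0254% with TPL. Together they thus took more than 10-fold less of the library with TPL in every pairing of libraries within a cell state.

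The element that ZFP36 proteins prefer, the nonamer TTATTTATT (DNA letters, sense strand), stands once in the 3′UTR of each of the ZFP36 genes and of ELAVL1, and in none of the other 6. These 4 sites are shown because they match the element that the ZFP36 members of the set prefer. They are not the only AU-rich stretches in the members' own mRNAs. The capitals mark the nonamer, with 9 bases of the hg19 genome to each side.
ZFP36: atgacgactTTATTTATTctaatatga
ZFP36L1: actgttggaTTATTTATTttagaaatt
ZFP36L2: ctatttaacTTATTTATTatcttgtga
ELAVL1: tttatgtatTTATTTATTgaagtgtga
The nonamers lie at chr19:39899846-39899854 (plus strand), chr14:69254804-69254812, chr2:43450597-43450605 and chr19:8026722-8026730 (minus strand), within the 3′UTR of the canonical transcript in GENCODE. They begin at base 507 of 708, 1438 of 1871, 853 of 1917 and 1637 of 4910 of these 3′UTRs. Of 19338 genes with a 3′UTR, 8.44% held the nonamer at least once and 67.7% held the shorter pentamer ATTTA, which all 10 members have. The pentamer stood 5, 8 and 5 times in ZFP36, ZFP36L1 and ZFP36L2, 13 times in ELAVL1, 20 times in CNOT7 and once in KHSRP and in CNOT1. A match is a stretch of letters and was not measured as a bound site.

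ELAVL1 and KHSRP, the other ARE-binding proteins of the set, fell less than the ZFP36 genes. ELAVL1 (gene ID 1994, chr19:8023457-8070525, minus strand) had 16.06 and 15.49 FPKM in NT cells and 8.17 and 7.83 with TPL, and 14.84 and 14.39 FPKM in TAM cells and 8.55 and 9.79 with TPL. Its replicates lay close together and its log2 ratio was -0.99 for NT (SE 0.127, adjusted p = 0.00175) against -0.72 for TAM cells (SE 0.126, adjusted p = 0.00629). KHSRP (gene ID 8570, chr19:6413113-6424822, minus strand) had 103.09 and 108.71 FPKM in NT cells and 69.26 and 51.87 with TPL. The TAM libraries had 131.91 and 112.35 FPKM, and 84.49 and 75.72 with TPL. The libraries with TPL lay below those without it in both states, at a log2 ratio of -0.82 (SE 0.162, adjusted p = 0.00908) for NT and -0.66 (SE 0.161, adjusted p = 0.0216) for TAM cells. Leaving out 1 library took some of these calls just past 0.05: ELAVL1 in TAM cells had an adjusted p of 0.0558 without TAM + TPL replicate 1, and KHSRP in NT cells 0.052 without NT replicate 2. KHSRP in TAM cells had 0.119 and 0.0529 without TAM replicate 1 or 2, 0.0801 and 0.134 without TAM + TPL replicate 1 or 2, and 0.0833 with upper quartile scaling (log2 ratio -0.42).

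The BTG/TOB genes went different ways. TOB1 (gene ID 10140, chr17:48939584-48943715, minus strand) had 36.22 and 43.02 FPKM in NT cells and 91.32 and 51.49 with TPL. In TAM cells it had 20.91 and 23.69 FPKM, and 76.26 and 80.72 with TPL. All 4 TPL libraries lay above all 4 DMSO libraries, and the log2 ratio was 0.86 for NT (SE 0.243, adjusted p = 0.0309) against 1.76 for TAM cells (SE 0.25, adjusted p = 0.00288). The log2 ratio of 76.3% of all genes tested was at or below that of TOB1 in NT cells, and of 90.1% in TAM cells. Many other genes thus rose as much. The rise in NT cells did not hold with any 1 library left out other than NT + TPL replicate 2. Its adjusted p was then 0.136 and 0.0847 without NT replicate 1 or 2, 0.0728 without NT + TPL replicate 1, 0.051 and 0.0509 without TAM replicate 1 or 2, and 0.0556 and 0.0558 without TAM + TPL replicate 1 or 2. The log2 ratio was then between 0.745 and 0.99 in all of these fits but the one without NT + TPL replicate 1, where it was 0.45. It also missed the threshold with GAPDH as the reference (adjusted p = 0.208), with the replicate number as a block (0.056) and in a fit over the 2 groups compared (0.0996). The TAM rise held with any 1 library left out.

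TOB2 (gene ID 10766, chr22:41829498-41842805, minus strand) had 14.89 and 18.25 FPKM in NT cells and 49.23 and 31.79 with TPL (log2 ratio 1.27, SE 0.214, adjusted p = 0.00487). The TAM libraries had 21.63 and 18.91 FPKM, and 42.80 and 38.38 with TPL (log2 ratio 0.95, SE 0.212, adjusted p = 0.0151). As for TOB1, every TPL library lay above every DMSO library, and many other genes rose as much. The log2 ratio of 85.1% of all genes tested was at or below that of TOB2 in NT cells, and of 79.5% in TAM cells. The TAM rise of TOB2 had an adjusted p of 0.0585 and 0.0929 without TAM replicate 1 or 2, and of 0.0866 and 0.0504 without TAM + TPL replicate 1 or 2. The summed level of TOB1 and TOB2 was 51.1 and 61.3 FPKM in NT cells and 140.5 and 83.3 with TPL, and 42.5 and 42.6 FPKM in TAM cells and 119.1 in both TPL libraries.

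BTG1 (gene ID 694, chr12:92534054-92539622, minus strand) overlapped between the groups in NT cells, with 15.99 and 17.23 FPKM and, with TPL, 16.67 and 13.23 (log2 fold change -0.16, SE 0.192, adjusted p = 0.536). In TAM cells it fell, from 25.71 and 24.97 FPKM without TPL to 11.11 and 16.04 with it (log2 fold change -0.95, SE 0.193, adjusted p = 0.011). This fall had an adjusted p of 0.0566 and 0.0523 without TAM replicate 1 or 2, and of 0.0617 without TAM + TPL replicate 1. BTG1 shares 10.4% of its exonic bases with LINC01619 on the same strand, so its counts are uncertain to that extent.

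CNOT1, the scaffold, did not pass the threshold in either state by edgeR with all libraries, and the call in NT cells depended on the processing. CNOT1 (gene ID 23019, chr16:58553855-58663730, minus strand) had 22.95 and 33.29 FPKM in NT cells and 21.68 and 12.49 with TPL (log2 ratio -0.73, SE 0.261, adjusted p = 0.0662). Without NT + TPL replicate 1 it passed, with -1.12 (adjusted p = 0.0143). It also passed with DESeq2 (0.0135), with GAPDH as the reference (0.0238), with rows summed per gene symbol (0.0255) and under a floor of 10 counts (0.039), which makes 7 members lowered in NT cells. In TAM cells it had 26.83 and 23.98 FPKM and 21.35 and 21.46 with TPL (log2 ratio -0.29, SE 0.26, adjusted p = 0.419). SETD6, which runs antisense, covers 12.5% of its exonic bases. Antisense genes also cover 18.8% of the exonic bases of CNOT7, 7.6% of those of ELAVL1 and 5.64% of those of BTG1. CNOT7 (gene ID 29883, chromosome 8, minus strand), the deadenylase, had 30.03 and 32.36 FPKM in NT cells and 17.41 and 13.88 with TPL. The TAM libraries had 27.48 and 30.63 FPKM, and 14.71 and 18.31 with TPL. CNOT7 fell in both states, at a log2 ratio of -0.999 for NT (SE 0.166, adjusted p = 0.00473) and -0.89 for TAM cells (SE 0.166, adjusted p = 0.00793). The latter had an adjusted p of 0.054 without TAM replicate 2 and of 0.0639 without TAM + TPL replicate 1. In the NT + TPL group, replicate 1 had the higher level of the pair for all 10 genes.

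By mean level, the order in NT cells was ZFP36, ZFP36L1, ZFP36L2, KHSRP, TOB1, CNOT7, CNOT1, BTG1, TOB2 and ELAVL1. The libraries of ZFP36L2 and KHSRP overlapped in this order, as did those of CNOT7 and CNOT1 and those of BTG1, TOB2 and ELAVL1, so these neighbours did not differ beyond their spread. With TPL the order in NT cells began with TOB1 at a mean of 71.4 FPKM, ZFP36 at 61.1 and KHSRP at 60.6, whose libraries overlapped. TOB2 followed at 40.5, and its libraries overlapped with those of ZFP36. ZFP36L1 came next at 23.3, and ZFP36L2 at 10.5 FPKM came just before ELAVL1 at 8.0, with which it overlapped. In TAM cells with TPL, ZFP36 at 96.5 FPKM stood above KHSRP at 80.1 and TOB1 at 78.5, which overlapped, and ELAVL1 at 9.17 and ZFP36L2 at 8.84, which overlapped too, came last. By rank among all genes tested, TOB1 moved up from place 1733 to 927 in NT cells, and to place 769 from 2965 in TAM cells.

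Between TAM and NT cells without TPL, 0 of the 10 genes passed an adjusted p of 0.05 in edgeR, with 3.46% of all genes raised and 3.39% lowered. At an unadjusted p under 0.05 there were 3 members, where 19.9% of all genes were, and DESeq2 in place of edgeR passed 3. They were the same genes in both, BTG1, TOB1 and ZFP36L2. BTG1 was higher in TAM cells, with a log2 ratio of 0.63 (SE 0.192, adjusted p = 0.12, range over the alternatives 0.00875 to 0.694). TOB1 (-0.78, SE 0.247, adjusted p = 0.129, range 0.0188 to 0.196) and ZFP36L2 (-0.81, SE 0.296, adjusted p = 0.186, range 0.0352 to 0.26) were lower there. For these 3 genes the NT and TAM libraries did not overlap, but neither did those of ZFP36, ZFP36L1, TOB2, ELAVL1 and KHSRP. The lack of overlap thus does not set the 3 apart, and its share over all genes was not counted. TOB1 passed without NT + TPL replicate 1 or 2 (adjusted p = 0.0249 and 0.0245), which are not part of this comparison but enter the estimate of the spread. ZFP36 itself had a log2 ratio of 0.21 (SE 0.237, adjusted p = 0.699), and the sign of this value turned with GAPDH as the reference. Scaled to GAPDH, the median of all genes was -0.50 in this comparison.

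Between TAM + TPL and NT + TPL cells, 0 of the 10 genes passed in edgeR, with 2.83% of all genes raised and 4.21% lowered. At an unadjusted p under 0.05 there were 2 members, ZFP36 and KHSRP, beside 21.3% of all genes, and DESeq2 passed 1, ZFP36. ZFP36 was 0.64 higher in TAM + TPL on the log2 scale (SE 0.242, adjusted p = 0.185), and without NT + TPL replicate 1 the value was 1.11 (adjusted p = 0.0174). KHSRP was 0.38 higher (SE 0.162, adjusted p = 0.234). Whether the effect of TPL differs between the cell states was tested as the interaction in the same fit. Of the 10 genes 0 passed in edgeR and 0 with DESeq2, and 2 had an unadjusted p under 0.05, beside 10.6% of all genes. At an adjusted p of 0.05, 0.0885% of all genes had a more positive and 0.0767% a more negative change in TAM cells. The 2 were TOB1 (0.90, SE 0.344, adjusted p = 0.434) and BTG1 (-0.79, SE 0.272, adjusted p = 0.386). For the ZFP36 genes the difference was 0.43 (SE 0.338), 0.18 (SE 0.384) and 0.56 (SE 0.429) in the order ZFP36, ZFP36L1, ZFP36L2, with adjusted p values from 0.674 to 0.914.

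RNAPII peaks were then compared with these levels. Each list gives the start and end of the peaks that hold a TSS in 1 condition and no height, so a peak tells where RNAPII was called, not how much, and there is no replicate. The names of the peaks carry the first replicate of each condition, and whether a list was called on 1 or on both replicates is not given in the sources used here. The main TSS, that of the canonical transcript, lay in a peak for all 10 genes in the NT, TAM and TAM + TPL lists and for 9 of them in NT + TPL. Among 19812 protein-coding genes 47.9% in NT cells had it, 42.2% in TAM cells, and with TPL 38.3% and 37.5%. The exception was ZFP36L1 in NT + TPL. From NT to NT + TPL, 22.9% of the genes with a peak had none, and 19.1% from TAM to TAM + TPL. The peak names carry a cutoff of 0.02 in 3 of the lists and a q of 0.1 in the TAM list, where 4584 of 11056 peaks are named as parts of a split peak, so that list may have been called with another setting, and whether this bears on the widths was not tested.

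The extent of the peaks differed among the members. In NT cells the peak over ZFP36L2 was 8425 bases wide and that over ZFP36L1 8141, reaching 6952 and 4817 bases downstream of the main TSS. With TPL the peak over ZFP36L2 measured 585 bases. Of 7313 genes with a peak in both lists, 0.41% narrowed as much, although few had peaks wide enough to do so: the median width in the NT list was 632 bases. Wide peaks were fewer with TPL among all genes, where 371 had one of at least 3 kb in NT cells and 68 with TPL, and 172 in TAM cells and 55 with TPL. In ZFP36L1 the only peak left in NT + TPL covered 511 bases, between 2659 and 3169 bases upstream of the main TSS, at annotated starts of other ZFP36L1 transcripts. In TAM cells the peak over ZFP36L1 was 11473 bases wide. With TPL a peak of 230 bases remained over the main TSS, and another of 646 bases lay between 2482 and 3127 bases upstream. Of 6762 genes with a peak in both of these lists, 0.0444% narrowed as much. ZFP36L2 went from 4585 to 556 bases there, as narrow a ratio as 0.562% of genes.

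ZFP36 had a peak of 3726 bases in NT cells and of 1174 with TPL, reaching 3487 and 888 bases downstream of its TSS. In TAM cells the width was 3973 bases and 3856 with TPL, so that the peak still covered the whole gene at the time the mRNA was 11.9-fold lower. TOB1, whose mRNA rose, had widths of 1505 and 1259 bases in NT cells without and with TPL, and of 400 and 1348 in TAM cells. The peak over TOB2 went from 2708 to 1142 bases in NT cells, and to 961 from 2040 bases in TAM cells. The width over BTG1 was 637 bases in NT cells and 949 with TPL, but 2943 bases in TAM cells and 625 with TPL. CNOT7 had 959 and 1059 bases in NT cells and 520 and 1662 in TAM cells. ELAVL1, KHSRP and CNOT1 had peaks between 283 and 1351 bases in every list, and over all genes the median ratio of the width with TPL to that without was 0.877 in NT and 1.04 in TAM cells.

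**Figure D3:**
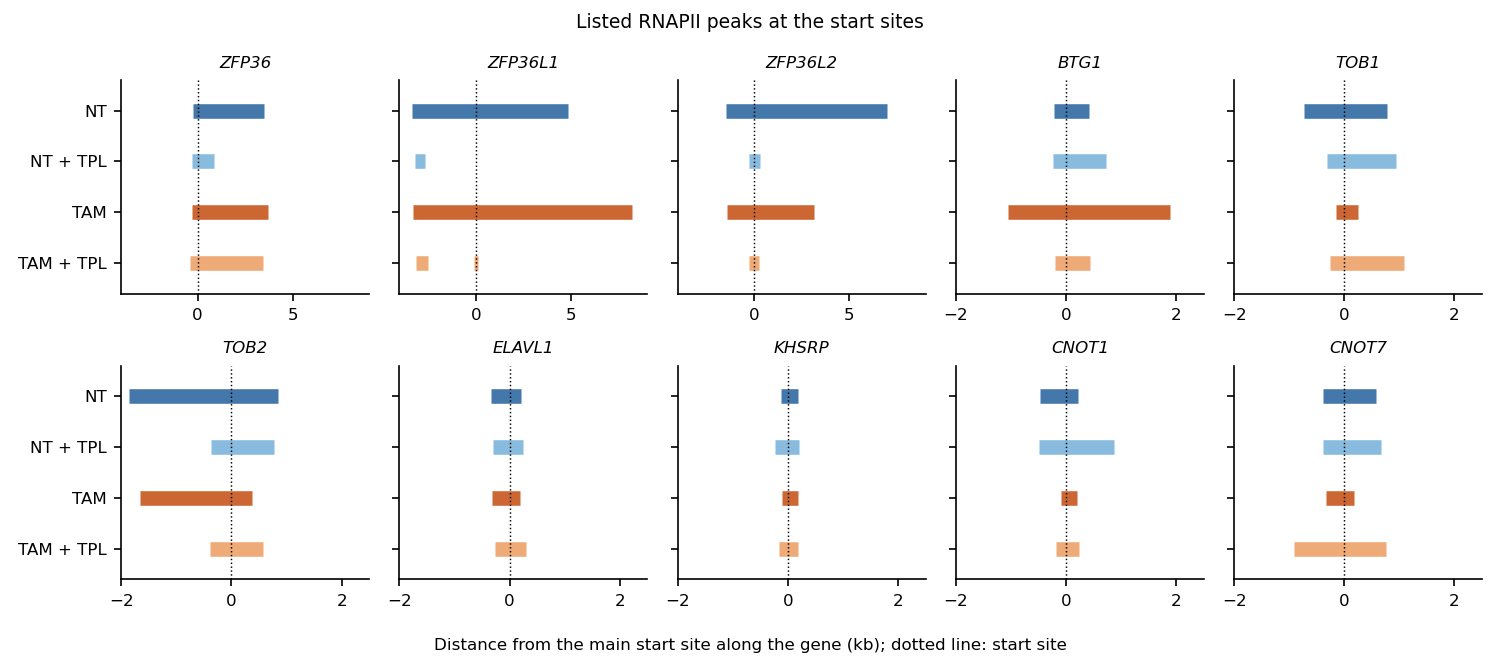
Listed RNAPII peaks at the start sites of the 10 genes in the 4 conditions (rows), as distance from the main TSS along the gene (horizontal axis, kb, dotted line at the TSS). The ZFP36 genes have a wider scale than the others: ZFP36L1 and ZFP36L2 shrink from 8141 and 8425 bases in NT cells to short peaks with TPL, while the peaks of TOB1, ELAVL1, KHSRP, CNOT1 and CNOT7 stay around the TSS.

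Promoters of a gene that fell and of one that rose are shown side by side, since both had a peak at the start in all 4 lists. Each is the 250 bases before the start in the RefSeq table (build GRCh38.p14), matched to a single place in hg19, and the capitals mark GGGCGG, the GC box bound by SP1, on either strand.
ZFP36: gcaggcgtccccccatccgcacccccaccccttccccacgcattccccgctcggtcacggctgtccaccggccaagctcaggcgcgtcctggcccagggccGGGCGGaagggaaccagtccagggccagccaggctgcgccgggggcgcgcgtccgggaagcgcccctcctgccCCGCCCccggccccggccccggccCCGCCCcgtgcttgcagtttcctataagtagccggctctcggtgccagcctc
TOB1: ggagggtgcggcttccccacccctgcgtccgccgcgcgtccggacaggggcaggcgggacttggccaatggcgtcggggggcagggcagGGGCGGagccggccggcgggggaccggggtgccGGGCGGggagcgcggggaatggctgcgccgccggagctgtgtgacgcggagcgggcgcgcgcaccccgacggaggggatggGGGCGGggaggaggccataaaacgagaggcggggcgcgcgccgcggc
The stretches are chr19:39897237-39897486 (plus strand) and chr17:48943716-48943965 (minus strand). Both held the GC box 3 times, at 149, 76 and 52 bases before the start in ZFP36 and at 161, 128 and 47 in TOB1, counted from its first letter. TOB2 and KHSRP held it 2 times and BTG1 once, and 42.6% of 35116 promoters in the table had at least 1. TATAAA was found in BTG1, where it begins 33 bases before the start, and in 10.7% of promoters. The cyclic AMP response element TGACGTCA was found in 1 of the 2 promoters of ZFP36L1, 52 bases before the start, and in 1.65% of promoters. CACGTG and the CArG and kappaB motifs were not found in these windows, and promoters of ZFP36L2, ELAVL1, CNOT1 and CNOT7 were not analysed here.

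**Figure D4:**
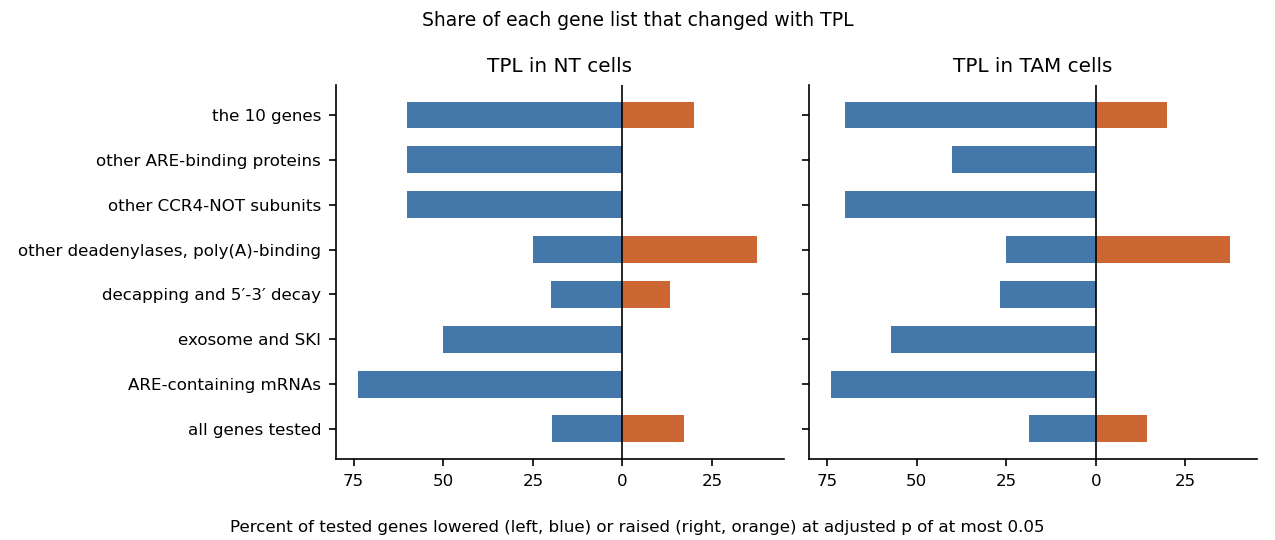
Share of the tested genes of each list that TPL lowered (blue, to the left) or raised (orange, to the right) at an adjusted p of at most 0.05, in percent, in NT cells (left panel) and TAM cells (right panel). The lowest row gives all 16948 genes tested, of which 19.8% and 18.6% were lowered.

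The rest of the decay machinery was described by lists of genes grouped by their known roles, chosen with earlier results of these data known. The counts of each list stand beside 19.8% of all genes tested lowered and 17.2% raised in NT cells. In TAM cells these shares were 18.6% and 14.3%. Of 10 other CCR4-NOT subunits, 6 fell with TPL in NT and 7 in TAM cells, and 0 rose in either. The median log2 ratio was -0.90 in both. CNOT2, a structural subunit, went from 28.09 and 22.93 to 11.39 and 13.23 FPKM in NT cells, and to 8.97 and 8.16 from 28.12 and 29.42 in TAM cells (log2 ratio -1.03 and -1.76, adjusted p = 0.00449 and 0.000808). TNKS1BP1, which associates with the complex, fell at log2 ratios of -1.61 and -1.21 (adjusted p = 0.0011 and 0.00357). CNOT6L, the other kind of deadenylase of the complex, had between 2.33 and 3.43 FPKM without TPL and between 0.53 and 1.67 with it (log2 ratio -1.905 and -1.20, adjusted p = 0.00826 and 0.0398, the latter up to 0.068 over the alternatives that keep all libraries). CNOT10 fell in TAM cells (-1.10, adjusted p = 0.00978) and had -0.56 in NT cells (adjusted p = 0.0798).

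Among 15 other ARE-binding and related RNA-binding proteins tested, 9 fell in NT and 6 in TAM cells and 0 rose. IGF2BP2, which binds and stabilises mRNAs, fell in both states (log2 ratio -1.87 and -1.59, adjusted p = 0.000994 and 0.00197). HNRNPD (AUF1), an ARE-binding protein, had 67.81 and 64.17 FPKM in NT and 23.76 and 17.52 with TPL (log2 ratio -1.70, adjusted p = 0.000921), and a log2 ratio of -1.04 for TAM cells (adjusted p = 0.00561). ZC3H12A (regnase-1), an endonuclease of inflammatory mRNAs, fell in both (log2 ratio -0.72 in NT and -1.595 in TAM cells, adjusted p = 0.0184 and 0.00114, the former up to 0.0827 over the same alternatives). PUM2, a Pumilio protein that also recruits CCR4-NOT, fell too (log2 ratio -1.43 and -1.10, adjusted p = 0.0013 and 0.00366). Of the other BTG/TOB genes, BTG2 rose in TAM cells, with 8.36 and 7.32 FPKM before and 11.23 and 11.42 FPKM after TPL (log2 fold change 0.48, adjusted p = 0.0433, up to 0.206 over these alternatives) and had -0.29 in NT cells (adjusted p = 0.154). BTG3 had between 9.45 and 20.52 FPKM and passed in neither state.

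The 8 other deadenylases and poly(A)-binding proteins moved in both directions, with 3 raised and 2 lowered in each cell state. PAN2, the catalytic subunit of the PAN2-PAN3 deadenylase, rose from 4.76 and 4.57 to 13.27 and 8.17 FPKM in NT cells (log2 fold change 1.18, adjusted p = 0.0123) and from 3.52 and 2.39 to 7.97 and 8.5 in TAM cells (1.44, adjusted p = 0.00718). PAN3, its partner, fell in NT cells (-0.98, adjusted p = 0.0243) and had -0.75 in TAM cells (adjusted p = 0.0619). The cytoplasmic poly(A)-binding protein PABPC1 rose from 1200.29 and 1334.26 to 2179.26 and 1990.52 FPKM in NT cells, and from 1510.48 and 1530.15 to 2179.83 and 2232.70 in TAM cells, with log2 ratios of 0.71 and 0.49 (adjusted p = 0.00386 and 0.0168). PAIP1, which binds PABPC1, fell (log2 ratio -0.75 and -1.06, adjusted p = 0.0131 and 0.00411). Each of these kept its direction under the other scalings, but 3 lost a call under 1 or more of the alternatives that keep all libraries. The adjusted p went up to 0.144 in NT and 0.128 in TAM cells for PABPC1, and in NT cells up to 0.0757 for PAN3 and 0.0535 for PAIP1.

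Of 15 decapping and 5′-3′ decay genes, 2 rose and 3 fell in NT cells and 4 fell in TAM cells, with a median log2 ratio of -0.06 and 0.01. PATL1, which links deadenylation to decapping, fell (log2 ratio -1.96 and -1.745, adjusted p = 0.00216 and 0.00346), and so did LSM6 (log2 ratio -1.99 and -1.47, adjusted p = 0.00612 and 0.0179). LSM2 fell in TAM cells (log2 ratio -1.002, adjusted p = 0.00965) and in NT cells had -0.18 (adjusted p = 0.5), which was 0.04 with upper quartile scaling. DCP1B had 2.42 and 1.23 FPKM in NT cells, 0.36 and 0 with TPL, 2.24 and 2.91 in TAM cells and 0 in both libraries of TAM + TPL (adjusted p = 0.0662 in NT and 0.0147 in TAM cells, the latter up to 0.0744 over the alternatives). The 14 exosome and SKI genes, which degrade RNA from the 3′ end, had 7 lowered in NT and 8 in TAM cells and 0 raised. Among all genes tested 19.8% and 18.6% were lowered. The medians of the 14 were -0.89 and -0.71. The core or cap subunits EXOSC3, EXOSC4, EXOSC9 and EXOSC2 fell in both states at log2 ratios between -1.60 and -0.88, with adjusted p values from 0.00277 to 0.0172. Over the alternatives EXOSC9 reached 0.0663 in NT and EXOSC2 0.0533 in TAM cells.

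Most of the listed mRNAs that are known to carry AREs fell with TPL as well. Of 23 tested, 17 were lowered in NT and 17 in TAM cells, 13 and 10 of them past the strict thresholds, and 0 rose. Among all genes tested 19.8% and 18.6% were lowered, and 2.71% and 2.04% past the strict thresholds. The medians of the 23 were -2.88 and -2.20. This list too was chosen with earlier results of these data known. The chemokine CXCL2 had 180.59 and 167.29 FPKM in NT cells and 8.34 and 3.69 with TPL, and 388.01 and 397.82 FPKM in TAM cells and 5.40 and 4.94 with TPL. The log2 ratio of CXCL2 was -4.87 for NT and -6.30 for TAM cells, with adjusted p values of 0.000232 and 0.000234. CXCL1, CXCL3 and the cytokine CSF3 fell at log2 ratios of -5.69, -4.74 and -4.78 in NT cells (adjusted p = 0.000518, 0.000192 and 0.000244) and of -6.265, -5.66 and -4.94 in TAM cells (adjusted p = 0.000413, 0.000167 and 0.000235). Between TAM and NT cells without TPL, 5 of the 23 were higher in TAM cells and 2 lower, against 3.46% and 3.39% of all genes.

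The nonamer was then followed over all genes. Of 1270 tested genes with TTATTTATT in the 3′UTR, 317 (25%) were lowered in NT and 267 (21.0%) in TAM cells, against 23.6% and 22.3% of the 13291 tested genes with a 3′UTR. Their median log2 ratio was -0.14 in NT and 0.00 in TAM cells, where all genes with a 3′UTR had -0.01 and -0.06. The genes with the nonamer had longer 3′UTRs, with a median of 3085.5 bases against 1332. With 3′UTRs from 1000 to 2000 bases, 24.7% and 19.7% of the 239 with the nonamer were lowered, and 27.2% and 26.0% of the 2772 without it. At the strict thresholds 5.86% of these 239 were called lower in NT and 2.93% in TAM cells, against 4.22% and 3.72% of the 2772. Over all lengths the strict calls were 4.41% and 2.6% of genes with the nonamer, and 3.39% and 2.54% of all with a 3′UTR.

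Genes with the pattern most like that of ZFP36, TOB1 and CNOT1 were found by Pearson's r of log2(FPKM + 1) over the 8 libraries, among 8599 genes with a mean of at least 5 FPKM. For ZFP36 these were PITPNM2 (r = 0.999), TRAF4 (r = 0.998) and PHF23 (r = 0.998). PITPNM2 had between 10.30 and 12.75 FPKM without TPL and between 1.04 and 2.32 with it. Among the genes most like TOB1 were MAT2A (r = 0.995) and ZNF468 (r = 0.986), and MAT2A, which makes S-adenosylmethionine, had between 188.32 and 258.79 FPKM without TPL and between 291.43 and 343.47 with it. For CNOT1 they were TRAPPC11 (r = 0.984), POGZ (r = 0.983) and CDK12 (r = 0.983). These values describe 8 libraries of 4 groups, which share the effect of TPL, and carry no test.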

How the data were processed

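Poly-A RNA of 8 cultures was sequenced, and RNAPII ChIP-Seq was run on 8 samples with 2 inputs. Per gene and library, the authors deposited expected counts from RSEM, after mapping with Bowtie2 and with no scaling. Beside them stand FPKM, which RSEM also gave the authors. The authors called peaks on hg19 with MACS, whose version the submitters' processing notes give as 1.4.2, and the lists hold starts and ends with no depth. A gene that a library does not list was set to 0. After rounding, counts went into edgeR 4.0.16 (R 4.3.3) with TMM scaling and its filter on low counts, in a single fit of the 4 groups. The biological coefficient of variation was 0.315, and SEs follow from the fold change and the F statistic. Members were matched by gene ID. TSSs and 3′UTRs came from GENCODE on build 37. DESeq2 1.42.0, limma 3.58.1 (on log2(FPKM + 1) and log2(FPKM + 0.1)) and other scalings, filters and samples were alternatives. The members, gene lists and naming rule (from each list, at most 4 genes past 0.05 with a mean of at least 1 FPKM, by size of change, plus BTG2 and BTG3) were chosen with earlier results of these data known. Simulated data were also run through the 2 tests of TPL against DMSO, the peak overlap and the motif search. The outcome is not given here, so these runs say nothing about the power to find small changes. ChIP-Seq signal was not used here. A gene of like pattern to TOB1 is not reported here.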

Additional observations from a re-analysis of the deposited data

How the results depend on the processing

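With 2 libraries a group, counts at the strict thresholds depended on the fit, while the directions of the ZFP36 and TOB genes with TPL held under every alternative run. Members called in NT cells (3) were 0 with a replicate block, with a crossed replicate block and in a fit over the 2 groups compared. They were 4 with DESeq2, under a floor of 10 counts per library and with rows summed per gene symbol, through the rise of TOB2. Members called in TAM cells (2) were 0 in the same 3 fits. With DESeq2, the floor of 10 counts and summed rows they were 4, through ZFP36L2 and the rise of TOB1. Members raised in NT cells (2) were 1 with GAPDH as the reference, with the replicate block and in the fit over 2 groups, each through TOB1. Between TAM and NT cells without TPL (0 past the threshold), 2 were lowered with GAPDH and with DESeq2, and 1 raised with DESeq2 and in the fit over 2 groups. Between TAM + TPL and NT + TPL, 1 was raised with DESeq2. With each library left out in turn, NT cells had from 0 to 3 members called, 5 to 7 lowered and 1 to 2 raised. TAM cells had from 0 to 4 called, 3 to 7 lowered and 1 to 2 raised. Without TAM replicate 2 there were 4 lowered in TAM cells and without TAM + TPL replicate 1 there were 3. In the comparison of TAM with NT, lowered members lay between 0 and 1 without TPL and raised members between 0 and 1 with TPL.

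Members lowered in NT cells (6) were 7 with DESeq2, GAPDH, summed rows and the floor of 10 counts, through CNOT1, and those lowered in TAM cells (7) were 6 with the upper quartile, through KHSRP. Changes of sign concerned values that had not passed. BTG1 in NT cells had 0.059 with upper quartile scaling. With GAPDH as the reference, ZFP36, TOB2 and KHSRP had -0.26, -0.18 and -0.25 between TAM and NT cells, and TOB1, ELAVL1 and CNOT7 had -0.10, -0.052 and -0.18 between TAM + TPL and NT + TPL. TOB2 in the latter comparison, at -0.01 by edgeR with TMM, had 0.019 with DESeq2 size factors, 0.003 by library size, 0.043 with the upper quartile, 0.006 over the 2 groups, 0.018 with DESeq2 and 0.033 and 0.035 with limma. With a library left out, signs turned for BTG1 (-0.41 to 0.10), CNOT7 (-0.084 to 0.21), TOB1 (-0.19 to 0.57), TOB2 (-0.25 to 0.33) and ZFP36L2 (-0.61 to 0.28) between TAM + TPL and NT + TPL. They also turned for CNOT1 (-0.36 to 0.16) and CNOT7 (-0.16 to 0.016) between TAM and NT, and for CNOT7 (-0.042 to 0.26), KHSRP (-0.008 to 0.35) and ZFP36L1 (-0.16 to 0.53) in the interaction.

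Replicate numbers are shared between groups, but nothing says that they mark a shared culture or day. Deviations of same-numbered libraries correlated between -0.14 (NT with NT + TPL) and 0.05, so the replicate block, at 0 called members in both states, is given only as an alternative. The crossed pairing and the overlap of peaks with the gene body were chosen after seeing the data. Counts of members with a peak moved by at most 1 under any overlap rule. The medians of all genes shifted to -0.26 in NT and -0.07 in TAM cells with GAPDH and to 0.31 and 0.29 with the upper quartile. GAPDH itself had 2934.18 and 2443.45 FPKM in NT cells and 3708.37 and 3197.19 with TPL. In TAM cells it had 3676.52 and 3634.50 FPKM, and 4363.64 and 3877.06 with TPL. Scaling to GAPDH takes its own log2 change off that of every gene. Why GAPDH differed was not tested, nor was the cause of the shift with the upper quartile.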
